A study of Mus musculus with 12 samples.

Results

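The step from circadian time (CT) 10 to CT14 was described in CD8+ T cells, the cytotoxic lymphocytes, taken from lymph nodes of male C57BL/6J mice aged 8 weeks and kept in constant darkness. CT10 lies late in the subjective day, when mice rest, and CT14 lies early in the subjective night, when they are active. The comparison set the 2 CT14 libraries against the 2 CT10 libraries, with 1 library of each time from each of 2 days, so 4 of the 12 libraries of polyadenylated RNA were members. The other 8 libraries (CT2, CT6, CT18 and CT22, also 1 per day) entered the fit to estimate the spread. All 12 share the strain, the age, the tissue and the darkness, and no group carried a treatment or an altered gene. Neither the number of mice behind a library nor the way in which the cells were isolated was given in the sources used here, so the p-values speak only of the spread among these libraries, which may be technical in part.

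Molecular chaperones help proteins fold. Hsp70 proteins bind unfolded stretches, J-domain partners bring them their clients, nucleotide exchange factors of the Hsp110 family reset them, and co-chaperones such as Stip1 pass clients on to Hsp90. Many of these genes are induced by heat shock factor, which binds alternating repeats of GAA and TTC, while Cirbp and Rbm3 encode RNA-binding proteins that are more abundant in cool cells. In mice, both body temperature and blood glucocorticoid follow a daily cycle, and glucocorticoids induce genes such as Tsc22d3 in lymphocytes.

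Counts on genes were 28628059 and 24689964 in the CT10 libraries of day 1 and day 2, and 32205484 and 33497078 in those of CT14, within a range of 24689964 to 33497078 over all 12. The 2 libraries of each time were not equal within counting error: chi-square divided by its degrees of freedom was 7.23 at CT10 and 5.65 at CT14, and 37.8 at CT2, the largest of the 6 times. Cd8a, which encodes the co-receptor of these cells, stood at 1529 and 1355 CPM (counts scaled to the size of the library) at CT10 (day 1 and day 2, the order used throughout) and at 1421 and 1429 CPM at CT14. Cd3e, a chain of the T cell receptor complex, lay between 532.7 and 576.9 CPM in the 4 libraries. Cd4, the co-receptor of helper T cells, was at 26.4 and 38.03 CPM at CT10 and at 45.9 and 44.0 CPM at CT14.

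At CT14, genes of cytosolic chaperones and of Hsp90 co-chaperones were higher than at CT10, with Hspa1b, Hspa1a and Hsph1 in front. The cold-inducible genes Cirbp and Rbm3, the glucocorticoid-induced gene Tsc22d3, the mTOR inhibitor gene Ddit4 and the interleukin 7 receptor gene Il7r were lower. Of these, Tsc22d3 and Il7r did not pass with the day as a replicate block. The 23 glucocorticoid response genes tested had a median log2 difference of 0.02. Of 16396 genes tested, 73 were higher at CT14 (0.445%) and 134 were lower (0.817%), together 207 (1.26%). The threshold was 0.05 on the p-value of edgeR's quasi-likelihood F test after Benjamini-Hochberg correction for all genes tested, and each adjusted p given is of that kind. Before correction, 2306 genes had a p under 0.05. The median log2 difference over all genes was 0.00, and 50.4% of genes had a positive one. Called differences spanned 0.27 to 3.65 on the log2 scale in size, with 11 rises and 21 falls larger than 1.

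The rises and the falls differed in kind. The genes that rose had a median level of 74.2 CPM over the 4 libraries, against 26.5 CPM for those that fell and 13.6 CPM for all genes tested. Long noncoding RNAs (mostly antisense, long intergenic and processed transcripts, with a few of other classes) made up 2.74% of the rises and 16.4% of the falls, against 7.89% of all genes tested. Of the 73 rises, 64 had both CT14 libraries above each of the other 10 libraries, which held for 4.72% of all genes. Of the 134 falls, 111 had both CT14 libraries below the other 10 (5.07% of all genes). In 29 falls both CT10 libraries were above the other 10 (2.9% of all genes). These genes were called by their CT14 and CT10 libraries, so part of the excess over all genes was fixed in advance. Of the 4073 genes with both CT14 libraries above both CT10 libraries, 774 had them above all 10 others. Of the 4299 with both CT14 libraries below both CT10 libraries, 832 had them below all 10 others.

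With the day as a replicate block, 36 genes were higher and 31 lower, all of them among the 207. Leaving out the CT10 library of day 1 left 9 rises and 0 falls, and leaving out the CT14 library of day 2 also left 9 rises and 0 falls. Without the CT10 library of day 2 there were 26 rises and 55 falls, and without the CT14 library of day 1 there were 15 and 2. Without both CT2 libraries, 284 genes were higher and 409 lower, and limma on log2(TPM + 1) gave 25 and 6. The alternatives refit libraries that had chosen the 207 genes, so a kept direction was largely fixed in advance. All 207 genes kept their direction in each of the 21 alternatives run, and 6 of them, all rises, passed in every one: Hsph1, Stip1, Chordc1, Ahsa2, Lman2l and Lbp.

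Summed markers of several other cell types were higher at CT14 than in the CT10 library of day 1, and in bulk RNA fewer cells of a type and less RNA per cell cannot be told apart. No gene of the 9 marker lists passed. The summed level of 15 monocyte and macrophage markers was 589.9 and 889.2 CPM at CT10 and 893.5 and 1100 CPM at CT14, with all 15 differences positive (median 0.44). Dendritic cell markers (10 of 10 positive) summed to 403.2 and 687.6 CPM and then to 734.1 and 660.5 CPM, natural killer cell markers (8 of 8 positive) to 81.8 and 157.3 CPM and then to 145.1 and 166.4 CPM. Neutrophil markers (6 of 7 tested positive) summed to 13.7 and 21.1 CPM and then to 35 and 27.2 CPM. Helper T cell markers (8 of 8 positive) summed to 134.1 and 178.0 CPM and then to 194.6 and 195.4 CPM. In each of these 5 lists the CT10 library of day 1 was the lowest of the 4. B cell markers summed to 937.5 and 851.5 CPM and then to 958.9 and 902.1 CPM, groups that overlapped, as did CD8 T cell markers, which summed to 6012 and 5555 CPM and then to 5692 and 5848 CPM. Markers of stroma and endothelium (9 of 11 tested) summed to 179.3 and 171.7 CPM and then to 145.5 and 156.7 CPM, and 1 of 6 erythroid markers was tested, at 1 CPM or less in all 4 libraries. With the summed monocyte and macrophage markers as a covariate, 67 genes were higher and 101 lower. They included 57 of the 73 rises and 92 of the 134 falls. Among those that passed were 9 cytosolic heat shock genes, 7 co-chaperones, both cold-inducible genes and 4 glucocorticoid response genes. The part of the other cell types in the results was not tested.

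**Figure D1:**
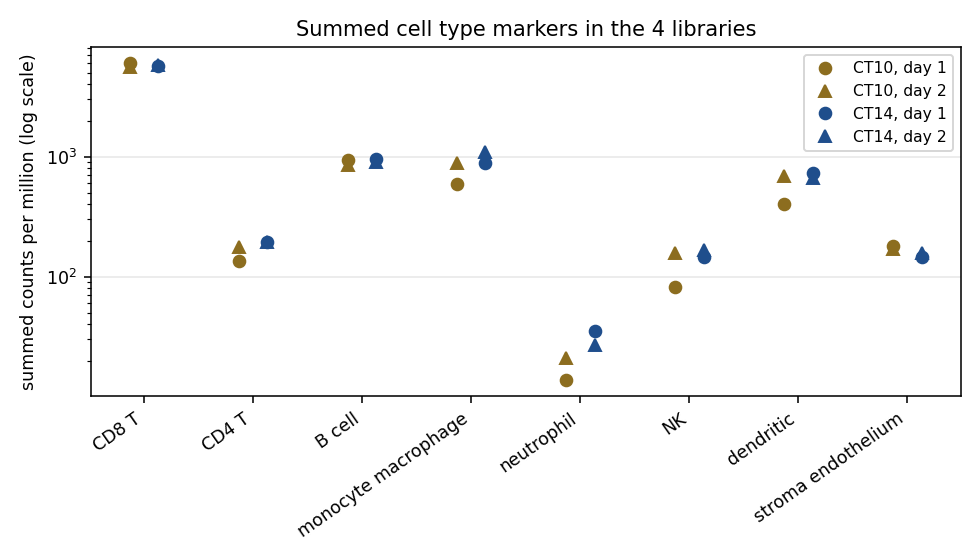
Summed CPM (log axis) of 8 cell type marker lists in the CT10 and CT14 libraries, circles for day 1 and triangles for day 2. The CD8 T cell sum lies between 5555 and 6012 in all 4 libraries, and the CT10 library of day 1 is the lowest for helper T cells, monocytes and macrophages, neutrophils, natural killer cells and dendritic cells.

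**Figure D2:**
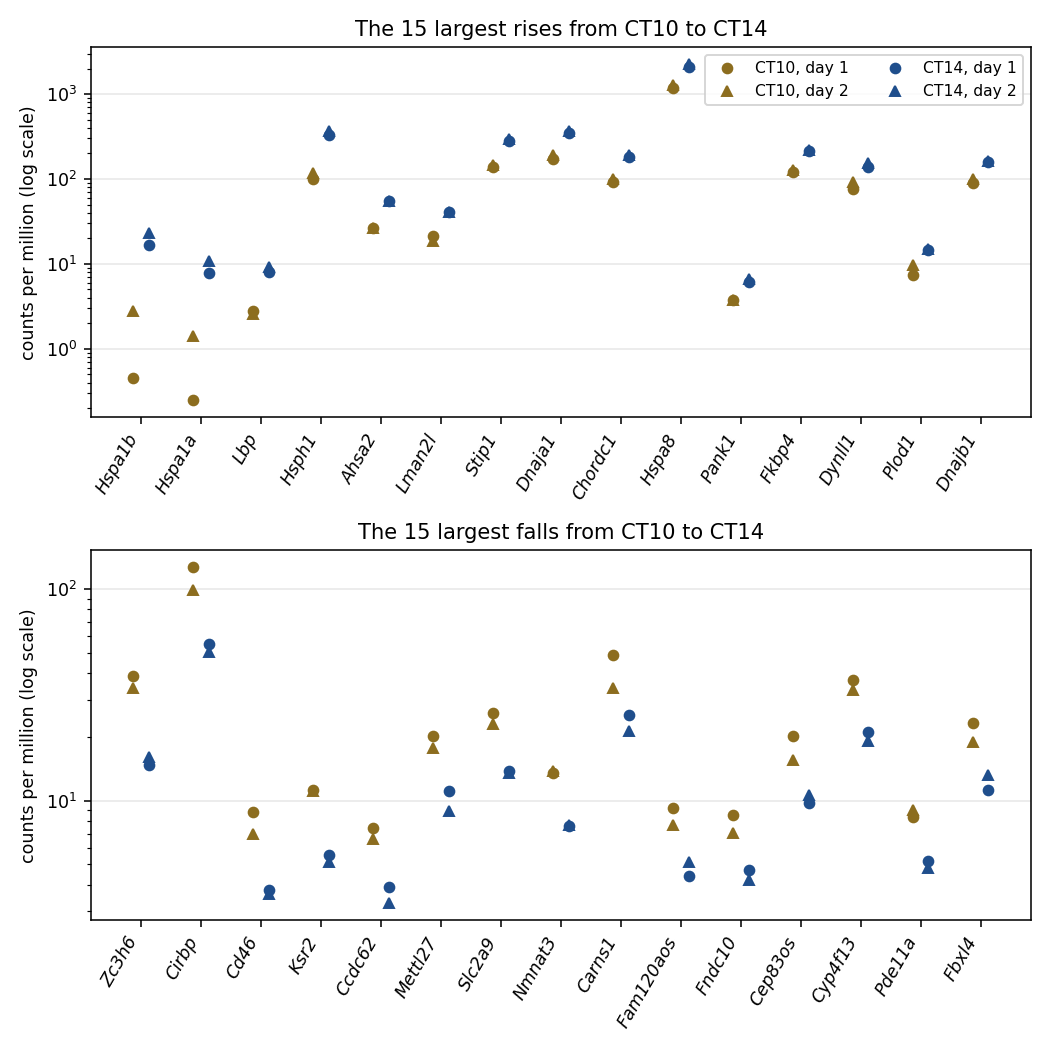
Level in CPM (log axis) of the 15 genes with the largest rise (upper panel) and the 15 with the largest fall (lower panel) among passing genes of at least 5 CPM; each point is 1 library, circles for day 1 and triangles for day 2. For every gene shown, both CT14 libraries lie on the same side of both CT10 libraries, and most of the rises are chaperone genes.

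The inducible Hsp70 genes Hspa1b and Hspa1a showed the largest rises. They lie close together on chromosome 17 (Hspa1b at chr17:34956436-34959238 and Hspa1a at chr17:34969190-34972156 of GRCm38, both on the minus strand), and their near-identical sequences let reads fall to either, so their separate values are uncertain. Hspa1b was at 0.46 and 2.78 CPM at CT10 and at 16.9 and 22.9 CPM at CT14. Both CT14 libraries stood above every other library of the series, whose highest value was 6.98 CPM, at CT18. The log2 rise was 3.65 ± 0.48 (SE, edgeR adjusted p = 0.00936), a 12.3-fold ratio of mean CPM. Hspa1a went from 0.25 and 1.41 CPM to 7.87 and 10.9 CPM, a log2 rise of 3.53 ± 0.49 (SE, edgeR adjusted p = 0.0108). The sizes rest on the low CT10 library of day 1: without it the log2 rise of Hspa1b was 2.84, and without the CT10 library of day 2 it was 5.42. Without the CT14 library of day 1 or of day 2 it no longer passed (edgeR adjusted p = 0.0511 and 0.123).

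Hsph1, an Hsp110 protein that resets Hsp70, gave the smallest p-value of all genes. It lies at chr5:149614287-149636376 on the minus strand. Its level was 99.1 and 119 CPM at CT10 and 332.9 and 366.1 CPM at CT14, a log2 rise of 1.68 ± 0.09 (SE, edgeR adjusted p = 2.3e-05). No library of another time exceeded 160.2 CPM. Hspa8, the constitutive Hsp70, rose from 1166 and 1296 CPM to 2083 and 2249 CPM, by 0.82 ± 0.12 on the log2 scale (SE, edgeR adjusted p = 0.0125). On the TPM scale, which corrects for transcript length so that levels of different genes can be compared, Hspa8 was the most abundant of the cytosolic heat shock genes and Hsp90 co-chaperones in each of the 4 libraries, at 1513 and 1650 TPM at CT10 and 2636 and 2733 TPM at CT14. Hspa1b reached 19.4 and 25.2 TPM at CT14, so the gene with the largest fold was at a small fraction of the level of Hspa8.

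Of 17 cytosolic heat shock genes tested (18 listed), 8 were higher at CT14 and 0 lower, with a median log2 difference of 0.70 and all 17 differences positive. The J-domain genes Dnaja1 and Dnajb1, whose products deliver clients to Hsp70, rose by 0.97 ± 0.12 and 0.75 ± 0.08. Hspa4l, another Hsp110 gene, rose by 0.61 ± 0.09 (SE for all, edgeR adjusted p = 0.0126 for Hspa4l). Hsp90ab1, the constitutive Hsp90, rose by 0.47 ± 0.09 from 1829 and 1890 CPM to 2472 and 2681 CPM (edgeR adjusted p = 0.0321, 0.0613 with the day block). Hsp90aa1, the inducible Hsp90, had the larger difference of 0.89 ± 0.19 but missed the threshold (edgeR adjusted p = 0.0557). Of the rest, Bag3, which releases clients from Hsp70, was at 4.39 and 6.53 CPM and then at 7.78 and 8.28 CPM (0.56 ± 0.18, SE, edgeR adjusted p = 0.18), and Hspa4, another Hsp110 gene, differed by 0.17 ± 0.06 (SE, edgeR adjusted p = 0.227). Dnajb4 lay at 0.32 ± 0.10 and Hspa2 at 0.70 ± 0.27, while the small heat shock genes Hspb1 and Cryab stayed under 0.4 CPM in all 4 libraries, too low to be resolved (0.93 ± 0.93 and 0.57 ± 0.82, SE for all). The gene of the factor itself, Hsf1, differed by 0.12 ± 0.08 (SE, edgeR adjusted p = 0.571) and Hsf2 by 0.24 ± 0.10 (SE, edgeR adjusted p = 0.314). With the day block 7 of the 17 passed, without the CT14 library of day 2 only Hsph1, and without the CT10 library of day 1 or the CT14 library of day 1 3 each.

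Among the 14 co-chaperones of Hsp90, 7 were higher and 0 lower, and these 7 also passed with the day block. Without the CT10 library of day 1 or without the CT14 library of day 2, 4 of them passed, and Fkbp4, Ahsa1 and Ptges3 did not. Ahsa2, an activator of the Hsp90 ATPase, was at 26.2 and 26.7 CPM at CT10 and at 54.5 and 55.3 CPM at CT14, the tightest pair of groups in the list (log2 rise 1.05 ± 0.06, SE, edgeR adjusted p = 3.7e-05). Stip1, which links Hsp70 to Hsp90, rose from 139.6 and 147.2 CPM to 276.6 and 293.3 CPM, by 0.99 ± 0.07 (SE, edgeR adjusted p = 0.000168). Chordc1, an Hsp90-binding protein, rose by 0.96 ± 0.08 and Fkbp4, an immunophilin of steroid receptor complexes, by 0.79 ± 0.09. St13, which binds Hsp70, rose by 0.73 ± 0.07, Ahsa1 by 0.68 ± 0.09 and Ptges3, the p23 co-chaperone, by 0.65 ± 0.09 (SE for all). The other 7 members lay between -0.15 and 0.11 on the log2 scale and none passed. Among them were Cdc37, which brings kinases to Hsp90, at -0.04 ± 0.06, and Fkbp5, at -0.15 ± 0.12 (SE), so the list split into a group near 0 and a group at 0.65 or more.

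Of 23 J-domain genes, 4 were higher and 0 lower, with a median of 0.06, close to that of all genes. Without the CT10 library of day 1 or the CT14 library of day 2, 0 of the 4 passed, and without either of the other libraries of these times 2 did. The lowest member was Dnajc10, a J-domain protein of the endoplasmic reticulum, at -0.24 ± 0.06 (SE, edgeR adjusted p = 0.101). Beside Dnaja1 and Dnajb1 the rises were Dnajb2 (0.53 ± 0.09) and Dnaja4 (0.35 ± 0.07), both of which missed the threshold with the day block (edgeR adjusted p = 0.0508 and 0.0743). Of 14 chaperonin and mitochondrial folding genes, 2 were higher and 0 lower, with all 14 differences positive and a median of 0.17. Without the CT10 library of day 1 or without either CT14 library 0 passed, without the CT10 library of day 2 1 did, and without either CT2 library 6 did. Hspd1, the Hsp60 of mitochondria, rose from 192.7 and 195.2 CPM to 275.7 and 293.6 CPM, by 0.55 ± 0.07 (SE, edgeR adjusted p = 0.00936). Its partner Hspe1 differed by 0.41 ± 0.14 without passing (edgeR adjusted p = 0.231). Cct3, a subunit of the cytosolic TRiC chaperonin, rose by 0.46 ± 0.07 (SE, edgeR adjusted p = 0.0149). Of the other TRiC subunits, Cct8 and Cct6a lay at 0.29 ± 0.09 and 0.28 ± 0.08 without passing (SE, edgeR adjusted p = 0.186 and 0.131). The mitochondrial Hsp70 gene Hspa9 was at 314.5 and 299.7 CPM at CT10 and at 303.2 and 317.9 CPM at CT14, groups that overlapped.

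In the endoplasmic reticulum, 1 of 19 folding genes was higher and 0 lower, although all 19 differences were positive (median 0.26) and in 18 of them both CT14 libraries lay above both CT10 libraries, against 24.8% of all genes. Hsp90b1, the Hsp90 of this compartment, rose from 342.0 and 376.9 CPM to 538.1 and 559.4 CPM, by 0.61 ± 0.11 (SE, edgeR adjusted p = 0.0311, 0.0576 with the day block). Hspa5, its Hsp70, was at 369.3 and 398.0 CPM at CT10 and at 508.6 and 530.4 CPM at CT14 but did not pass (log2 difference 0.44 ± 0.11, SE, edgeR adjusted p = 0.0926). The lectin chaperone genes Calr and Canx differed by 0.32 ± 0.07 and 0.29 ± 0.07 (SE, edgeR adjusted p = 0.0577 and 0.0788), and Sdf2l1, of the same compartment, by 0.54 ± 0.12 (SE, edgeR adjusted p = 0.0573). Without both CT2 libraries, whose Hsp90b1 levels were 529.5 ± 96.7 CPM (SD, n = 2), 11 of the 19 passed, each higher at CT14, and without the CT2 library of day 1 or of day 2 alone 11 or 10 did. Without any 1 library of CT10, CT14, CT18 or CT22, 0 passed.

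**Figure D3:**
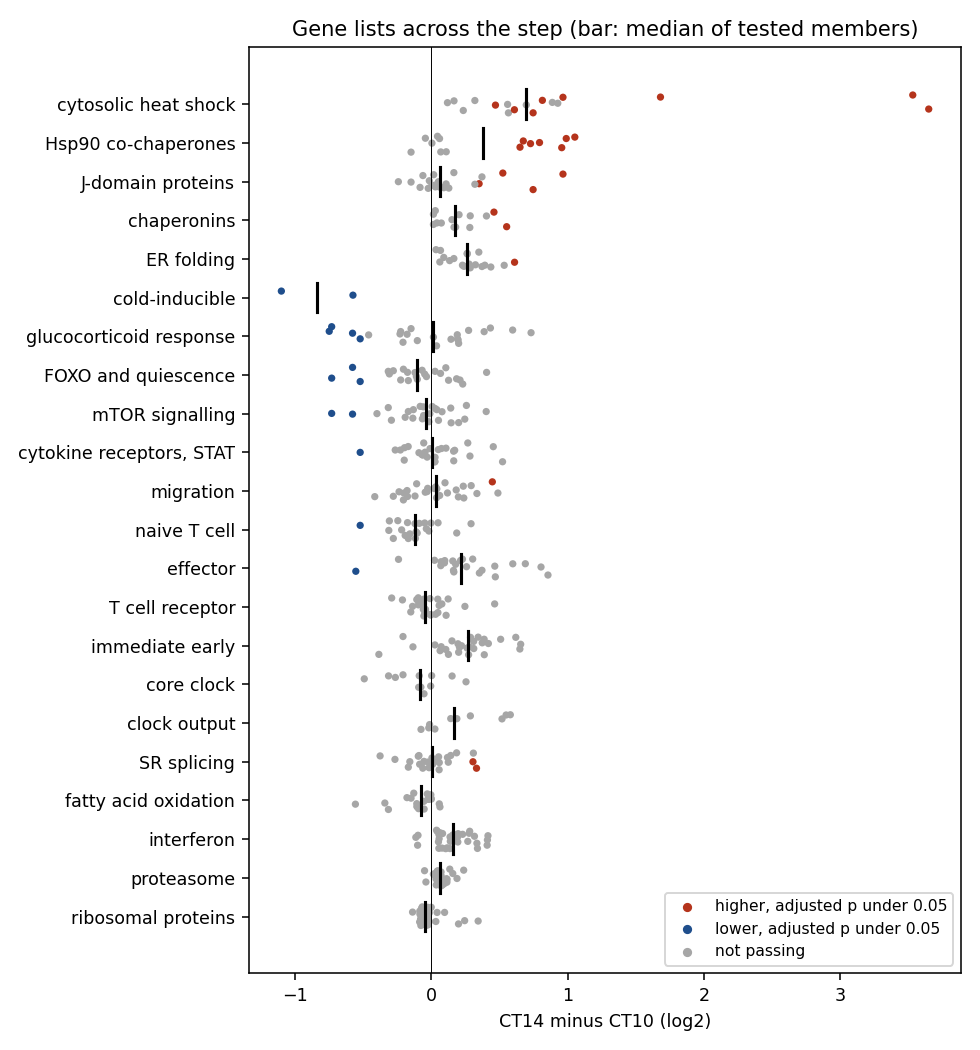
Log2 difference, CT14 minus CT10, of each tested member of 22 gene lists; each point is a gene, coloured where it passed, and the black bar is the median of the list. All members of the heat shock list lie to the right of 0, the pair of cold-inducible genes lies to the left, and the ribosomal protein genes lie close to 0 with a median of -0.04.

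Sequences before the starts of these genes were read for the letters that heat shock factor binds, since members that moved together can be compared on them. RefSeq windows of GRCm38.p6, from 250 bases before to 50 bases after a transcript start, were found for 10733 tested genes (13643 windows). Of the 73 genes that rose, 55 had 72 windows. A run of 3 alternating units, GAA and TTC in turn with 2 free bases between neighbours, searched on both strands, occurred in 0.491% of all windows, in 4 of the 72 windows of rising genes (5.56%) and in 1 of 124 windows of falling genes (0.806%). The 4 windows belonged to Hsph1 (2 overlapping windows that share 1 run), Chordc1 and Hspd1. The window among falling genes belonged to Eme2, which did not pass with the day block (edgeR adjusted p = 0.0648). A pair of such units is GAA then TTC or TTC then GAA, which every longer run also holds. It occurred in 12% of all windows, in 23.6% of those of rising genes and in 15.3% of those of falling genes. In the cytosolic heat shock list 12 of 17 genes had a window, and 47.1% of their 17 windows held a pair. In the list of Hsp90 co-chaperones 12 of 14 genes had a window, and 21.4% of their 14 windows held a pair. Rising genes of the chaperone lists had 24 windows, with a pair in 37.5% and a run of 3 in 4. Members of these lists that did not rise were not set apart, so rising and known heat shock genes cannot be separated here. The other rising genes had 48 windows, with a pair in 16.7% and a run of 3 in 0. These matches are descriptions of letters, and binding was not measured.

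The runs of 3 differed in number and place between the genes, and the stretches that hold them are printed 5′ to 3′ on the gene's strand, with the runs in capitals.
Hsph1: gtaaaatgctgcagaTTCTGGAAAGTTCtc
Chordc1: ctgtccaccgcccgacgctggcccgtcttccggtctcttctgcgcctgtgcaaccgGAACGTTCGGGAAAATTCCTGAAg
Hspd1: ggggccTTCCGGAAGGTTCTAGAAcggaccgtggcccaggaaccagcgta
The Hsph1 stretch is chr5:149636286-149636315 on the minus strand and begins at the first base of 1 of its transcripts, with the run 15 bases after that base. In Chordc1 (chr9:18292207-18292286, plus strand) 3 overlapping runs join into 1 stretch that spans the RefSeq start, from 4 bases before it to 18 bases after it. In Hspd1 (chr1:55088033-55088082, minus strand) 2 overlapping runs begin 144 bases before 1 of its RefSeq starts. Transcripts of the GENCODE M21 annotation were matched to neither of these starts. The other RefSeq start of Hspd1, matched by 2 GENCODE transcripts, lies upstream of the runs, so from there the runs are inside the gene. Hspa1b, the gene with the largest rise, held no exact run of 3 in its window and 1 exact pair of units, 104 bases before its start. The search took only exact GAA and TTC, so a run that holds an altered unit was not counted. Directly before the pair, the stretch reads gaa and tgc at the same spacing, and tgc is not an exact unit. The stretch is printed here with the pair in capitals.
Hspa1b: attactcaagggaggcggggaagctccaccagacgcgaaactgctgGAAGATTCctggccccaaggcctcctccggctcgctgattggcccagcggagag
That stretch is chr17:34959289-34959388 on the minus strand. The palindrome of GNACA and TGTNC with 3 free bases between, a form bound by the glucocorticoid receptor, was in 0.315% of all windows, in 0 of the 72 and 0 of the 124, and in 3 of 29 windows of the glucocorticoid list (10.3%). The E-box CACGTG, bound by the clock activators, was in 9.54% of all windows, 5.56% of those of rising genes and 6.45% of those of falling genes.

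Among passing genes of at least 5 CPM outside the chaperone lists, with pseudogenes and unnamed clones left out, Lbp and Lman2l rose most. Lbp, which encodes a protein that binds bacterial lipopolysaccharide, went from 2.76 and 2.54 CPM to 8.12 and 9.21 CPM, by 1.71 ± 0.16 (SE, edgeR adjusted p = 0.00101). Lman2l, a lectin of the secretory pathway, went from 21.3 and 18.7 CPM to 40.8 and 41.4 CPM, by 1.04 ± 0.10 (SE, edgeR adjusted p = 0.00101). In both genes the CT14 libraries stood above all others. Dynll1, a dynein light chain, rose by 0.79 ± 0.11 (SE, edgeR adjusted p = 0.0108). Pank1, which starts coenzyme A synthesis, rose by 0.80 ± 0.16 and Plod1, a collagen lysyl hydroxylase, by 0.77 ± 0.16, but neither passed with the day block (edgeR adjusted p = 0.0698 and 0.072). Of rises chosen after their values were seen, Ubxn4 and Ubfd1, which are linked to ubiquitin and protein degradation, rose by 0.39 ± 0.05 and 0.53 ± 0.06. Slc5a3, the inositol transporter, rose by 0.73 ± 0.11, P4ha1, a collagen prolyl hydroxylase, by 0.68 ± 0.10 and Sfpq, a nuclear RNA-binding protein, by 0.51 ± 0.08 (SE for all). Cacybp, which binds a ubiquitin ligase partner, rose by 0.74 ± 0.15, and Xpo1 and Rangap1, of nuclear export and the Ran cycle, by 0.36 ± 0.07 each. These 3 missed the threshold with the day block (edgeR adjusted p = 0.0703, 0.074 and 0.0791).

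Among 27 genes of migration and adhesion, 1 was higher and 0 lower, beside 0.445% higher and 0.817% lower over all genes. It was Ccr9, the chemokine receptor that directs T cells to the gut, which did not pass by limma on log2(TPM + 1). Ccr9 was at 157.8 and 148.2 CPM at CT10 and at 213.4 and 204.0 CPM at CT14 (log2 rise 0.45 ± 0.07, SE, edgeR adjusted p = 0.0186). The integrin genes did not share a direction: Itga4 differed by -0.41 ± 0.12 (SE, edgeR adjusted p = 0.15), Itgae by -0.20 ± 0.06 (SE, edgeR adjusted p = 0.136) and Itgal by 0.24 ± 0.07 (SE, edgeR adjusted p = 0.133). Of the receptors, S1pr1, which guides egress, lay at -0.20 ± 0.10 (SE, edgeR adjusted p = 0.38) and Cxcr4 at -0.18 ± 0.09 (SE, edgeR adjusted p = 0.438). Among 14 genes of nucleotide sensing, Art2b was the 1 that rose, from 70.6 and 62.5 CPM to 95.1 and 87.99 CPM (0.46 ± 0.08, SE, edgeR adjusted p = 0.0284). Its product is a surface ADP-ribosyltransferase of T cells that acts on the receptor encoded by P2rx7, which differed by 0.24 ± 0.15 (SE, edgeR adjusted p = 0.525). Of 24 SR splicing genes, Tra2a (0.33 ± 0.06) and Srsf7 (0.31 ± 0.06) were higher and 0 lower, and both missed the threshold with the day block (edgeR adjusted p = 0.06 and 0.0729). Tra2b, the close relative of Tra2a, lay at 0.31 ± 0.07 (SE, edgeR adjusted p = 0.0709), and Luc7l2 at -0.38 ± 0.11 (SE, edgeR adjusted p = 0.146).

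Both cold-inducible genes were lower at CT14. Cirbp (chr10:80165985-80172786, plus strand) was at 126.7 and 98.9 CPM at CT10 and at 54.9 and 50.4 CPM at CT14. Both CT14 libraries were below the other 10. The log2 change was -1.10 ± 0.18 (SE, edgeR adjusted p = 0.0196), a 2.14-fold higher mean at CT10. Rbm3 (chrX:8138975-8145880, minus strand) was at 372.2 and 368.7 CPM and then at 260.7 and 237.1 CPM (-0.57 ± 0.09, SE, edgeR adjusted p = 0.0185). Both passed with the day block, and neither passed without the CT10 library of day 1 or without either CT14 library, and Rbm3 did not pass without the CT10 library of day 2 either. By limma on log2(TPM + 1), Rbm3 passed and Cirbp did not (limma adjusted p = 0.03 and 0.246). Another RNA-binding gene among the falls, chosen after its values were seen, was Hnrnpa1, from 552.9 and 547.7 CPM to 425.3 and 401.4 CPM (-0.41 ± 0.08, SE, edgeR adjusted p = 0.0428, 0.072 with the day block). Also chosen so, Slc14a1, a urea transporter, fell from 78.1 and 66.2 CPM to 40.5 and 44.7 CPM (-0.76 ± 0.09, SE, edgeR adjusted p = 0.00679). Timeless, of replication fork protection, changed by -0.41 ± 0.08 and the exonuclease gene Xrn2 by -0.33 ± 0.07 (SE for both), and neither passed with the day block (edgeR adjusted p = 0.072 and 0.0823).

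Other large falls by the naming rule were in genes of lower level. Zc3h6, a zinc finger gene, went from 38.7 and 34.1 CPM to 14.8 and 16.0 CPM (-1.24 ± 0.17, SE, edgeR adjusted p = 0.0107). Ksr2, a scaffold of Ras signalling, fell by 1.07 on the log2 scale (SE 0.13), Slc2a9, a urate transporter, by 0.85 (SE 0.10), Nmnat3, of mitochondrial NAD synthesis, by 0.84 (SE 0.12) and Cyp4f13, a cytochrome P450, by 0.81 (SE 0.10). Mettl27 changed by -0.92 ± 0.13 (SE). Cd46, a complement regulator, changed by -1.09 ± 0.20, Ccdc62 by -0.96 ± 0.18, Carns1, the carnosine synthase, by -0.84 ± 0.15 and the phosphodiesterase gene Pde11a by -0.81 ± 0.14 (SE for all). These 4 did not pass with the day block (edgeR adjusted p = 0.0628, 0.0657, 0.0575 and 0.0572), nor did Fam120aos, Fndc10, Cep83os and Fbxl4, which complete the 15 and changed by -0.82 to -0.79 (edgeR adjusted p = 0.0576, 0.0613, 0.0634 and 0.0572 with the day block).

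Of 23 genes of the glucocorticoid response, 4 were lower (Tsc22d3, Ddit4, Pik3ip1 and Il7r) and 0 higher, and the median of the list was 0.02. Without the CT10 library of day 1, without either CT14 library or by limma 0 of them passed, without the CT10 library of day 2 or the CT18 library of day 1 1 did, and with the day block, or without the CT18 library of day 2 or either CT22 library, 2 did. Tsc22d3, which encodes an anti-inflammatory leucine zipper protein, was at 263.6 and 227.9 CPM at CT10 and at 140.4 and 152.3 CPM at CT14. Its CT10 libraries were above all 10 others, so CT10 was the high point and not CT14 the low one. The log2 change was -0.75 ± 0.14 (SE, edgeR adjusted p = 0.0348, 0.0606 with the day block). Ddit4, an inhibitor of mTOR complex signalling, had the same form, at 113.0 and 110.9 CPM and then at 62.6 and 72.4 CPM (-0.73 ± 0.12, SE, edgeR adjusted p = 0.024). Pik3ip1, an inhibitor of phosphoinositide 3-kinase, fell from 174.0 and 163.4 CPM to 114.5 and 111.7 CPM (-0.58 ± 0.09, SE, edgeR adjusted p = 0.0154). Other genes of the list did not pass: Fkbp5, Per1 and Txnip lay at -0.15, -0.21 and -0.22, Cdkn1a at 0.73 ± 0.29 (SE, edgeR adjusted p = 0.295), and the receptor gene Nr3c1 at 0.19 ± 0.05 (SE, edgeR adjusted p = 0.123).

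Il7r, the receptor chain for the survival cytokine interleukin 7, was at 620.2 and 601.7 CPM at CT10 and at 424.8 and 426.6 CPM at CT14. These were the highest and the lowest pairs of the 6 times. The log2 change was -0.52 ± 0.10 (SE, edgeR adjusted p = 0.0348, 0.0543 with the day block). Ddit4, Pik3ip1 and Il7r were also the 3 genes that fell among 24 FOXO and quiescence genes (0 higher, median -0.11), and Ddit4 and Pik3ip1 the 2 falls among 26 genes of mTOR signalling (0 higher), so these lists share their members. Of the FOXO and quiescence genes 0 passed without the CT10 library of day 1, without either CT14 library or by limma, 1 was lower without the CT10 library of day 2 or without either CT18 library, and 5 were lower without either CT2 library. Sesn1, of the same pathway, missed the threshold at -0.32 ± 0.07 (SE, edgeR adjusted p = 0.0511). Il18r1, a chain of the interleukin 18 receptor, was the 1 fall among 23 effector genes (0 higher), from 174.4 and 177.9 CPM to 122.8 and 117.3 CPM (-0.55 ± 0.08, SE, edgeR adjusted p = 0.0107). The other 22 effector genes did not pass: Klrd1, a receptor chain shared with natural killer cells, lay at -0.24 ± 0.06 (SE, edgeR adjusted p = 0.0937), Prf1, the pore-forming perforin, at 0.30 ± 0.08 (SE, edgeR adjusted p = 0.105) and Ccl3, a chemokine, at 0.86 ± 0.32 (SE, edgeR adjusted p = 0.266). Among 22 naive T cell genes, Il7r was the 1 that passed and 3 differences were positive, with a median of -0.12.

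**Figure D4:**
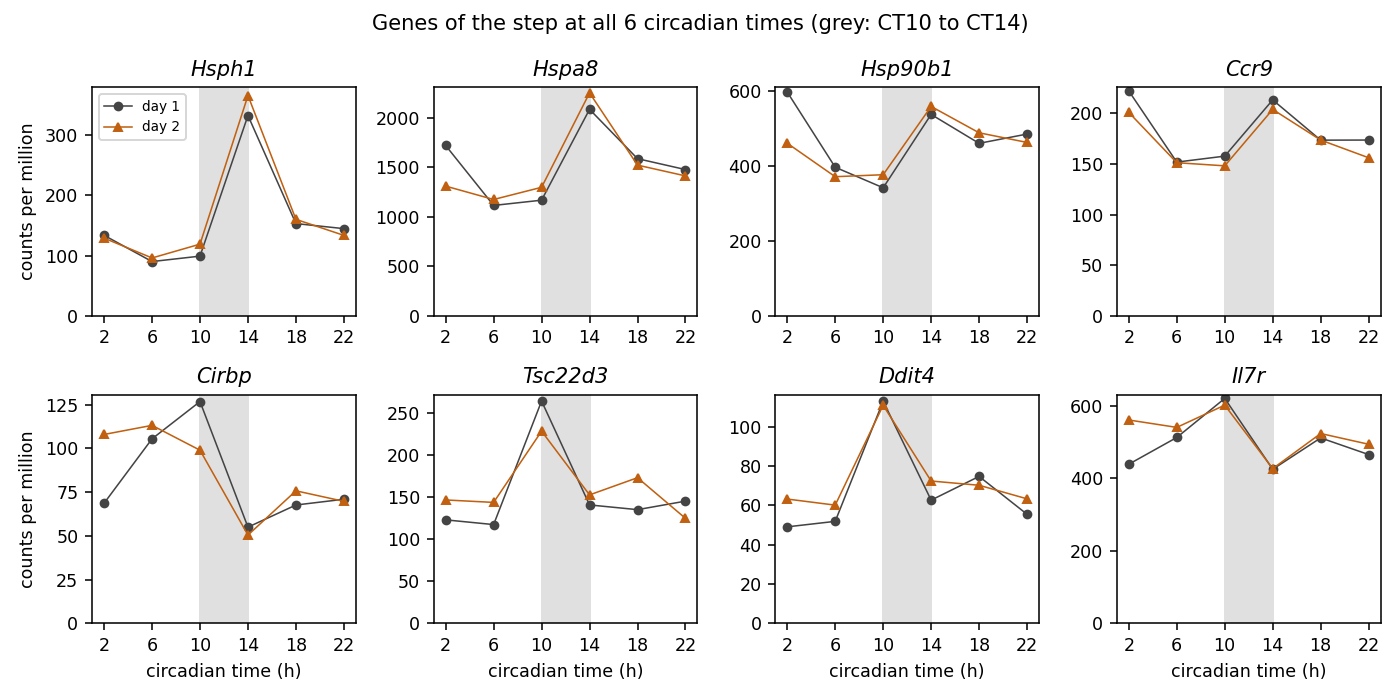
CPM of 8 genes at the 6 circadian times (x axis, h), 1 line for each day (circles for day 1, triangles for day 2), with the step from CT10 to CT14 in grey. Hsph1 and Hspa8 peak at CT14, Cirbp is lowest at CT14, and Tsc22d3 and Ddit4 have their highest values at CT10.

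The neighbouring times share libraries with this step, and their levels are given side by side. Hsph1 was at 93.0 ± 4.23 CPM at CT6, 109 ± 14.1 at CT10, 349.5 ± 23.5 at CT14 and 156.7 ± 4.91 at CT18 (SD, n = 2 each). Stip1 had the same order, at 130.0 ± 10.6, 143.4 ± 5.38, 284.9 ± 11.8 and 168.6 ± 1.79 CPM. Cirbp was at 109.2 ± 5.42, 112.8 ± 19.6, 52.7 ± 3.2 and 71.7 ± 5.74 CPM, with overlapping SDs at CT6 and CT10. Rbm3 was at 368.0 ± 21.1, 370.5 ± 2.43, 248.9 ± 16.6 and 249.3 ± 8 CPM, with overlapping SDs at CT14 and CT18. Differences between CT6 and CT10 and between CT14 and CT18 were not tested. Ddit4 was at 55.98 ± 5.83, 112.0 ± 1.48, 67.5 ± 6.88 and 72.5 ± 3.18 CPM, with CT6 and CT14 on both sides of the CT10 peak. Lman2l was at 18.7 ± 2.08, 19.97 ± 1.83, 41.1 ± 0.441 and 23.9 ± 1.49 CPM (SD, n = 2 for all).

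No clock gene passed: of 12 core clock genes tested (14 listed) and 10 output genes, 0 were higher and 0 lower in edgeR with the filter on low counts, DESeq2 and limma. In all, 3 had an unadjusted edgeR p under 0.05, beside 2306 of the 16396 genes tested, and the medians were -0.08 and 0.17. With no filter on low counts, 1 output gene was higher. The repressors Per1, Per2 and Per3 differed by -0.21 ± 0.09, 0.26 ± 0.10 and -0.31 ± 0.22, and Cry1 and Cry2 by 0.15 ± 0.10 and -0.09 ± 0.11. The activators Arntl, Clock and Npas2 lay at -0.09 ± 0.09, 0.00 ± 0.07 and -0.49 ± 0.60. The nuclear receptors Nr1d1, Nr1d2 and Rora lay at -0.26 ± 0.12, -0.05 ± 0.10 and -0.08 ± 0.11. Of the outputs, Bhlhe40, a repressor, had the largest difference (0.58 ± 0.25, edgeR adjusted p = 0.339), from 9.09 and 14.5 CPM to 17.6 CPM on both days. Bhlhe41, Nfil3 and Wee1 lay at 0.55 ± 0.42, 0.52 ± 0.24 and 0.29 ± 0.20, and Ciart, Nampt, Hlf, Dbp, Usp2 and Tef between -0.08 and 0.19 (SE for all).

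Among 28 immediate early genes, 25 differences were positive and 21 had both CT14 libraries above both CT10 libraries (24.8% of all genes), with a median of 0.27. An unadjusted edgeR p under 0.05 was found in 12 of the 28, beside 2306 of the 16396 genes tested. In edgeR with all 12 libraries and the filter on low counts, in DESeq2 and in limma 0 passed. In other edgeR fits some did: 8 were higher and 1 lower with no filter on low counts, 2 and 1 with the CT10 and CT14 libraries only, and 1 and 0 without CT2 libraries. Jun, a subunit of the AP-1 factor, was at 82.4 and 92.4 CPM at CT10 and at 153.5 and 121.8 CPM at CT14 (0.66 ± 0.20, SE, edgeR adjusted p = 0.151). Its partner Fos was at 88.6 and 96.1 CPM and then at 158.2 and 125.5 CPM (0.62 ± 0.28, SE, edgeR adjusted p = 0.348). In both genes the CT14 library of day 1 was the higher of its pair. Egr2 differed by 0.37 ± 0.10 (SE, edgeR adjusted p = 0.112).

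In metabolism, 0 of 20 tested genes of fatty acid oxidation and fuel choice passed (24 listed, median -0.07). Pdk2, a kinase that restrains pyruvate oxidation, came closest, from 12.6 and 12.3 CPM to 8.87 and 8.09 CPM (-0.56 ± 0.12, SE, edgeR adjusted p = 0.0573). Cpt1a, which admits fatty acids to mitochondria, differed by -0.34 ± 0.09 (SE, edgeR adjusted p = 0.105). No member passed among 35 interferon response genes (32 positive, median 0.16), 28 T cell receptor genes (median -0.04), 31 proteasome genes (29 positive, median 0.07) or 81 ribosomal protein genes (7 positive, median -0.04). The same held for the lists of glycolysis, sterol and lipid synthesis, cell cycle, ribosome biogenesis, ubiquitin stress, the respiratory chain, mitochondrially encoded genes and the BCL2 family. In 21 amino acid stress genes the 1 fall was again Ddit4, and in 26 cytokine receptor and STAT genes again Il7r.

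The step was compared between days on the same genes. All 73 rises and all 134 falls had the same sign on both days, but the same libraries had chosen them. Across all 16396 tested genes, the log2 difference of day 1 and that of day 2 had a Pearson correlation of 0.30, and across the 10081 genes of at least 5 CPM, 0.58, where genes are not independent replicates. In the test of the difference between days 0 genes passed in edgeR, and 216 had an unadjusted p under 0.05. The genes of smallest p by the naming rule were Hspa1b, with a log2 rise of 4.998 on day 1 and 3.01 on day 2 (unadjusted p = 0.00134, edgeR adjusted p = 1), Tigit, an inhibitory receptor, with 1.41 and 0.05, and Foxm1, a cell cycle factor, with 0.52 and -0.30.

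**Figure D5:**
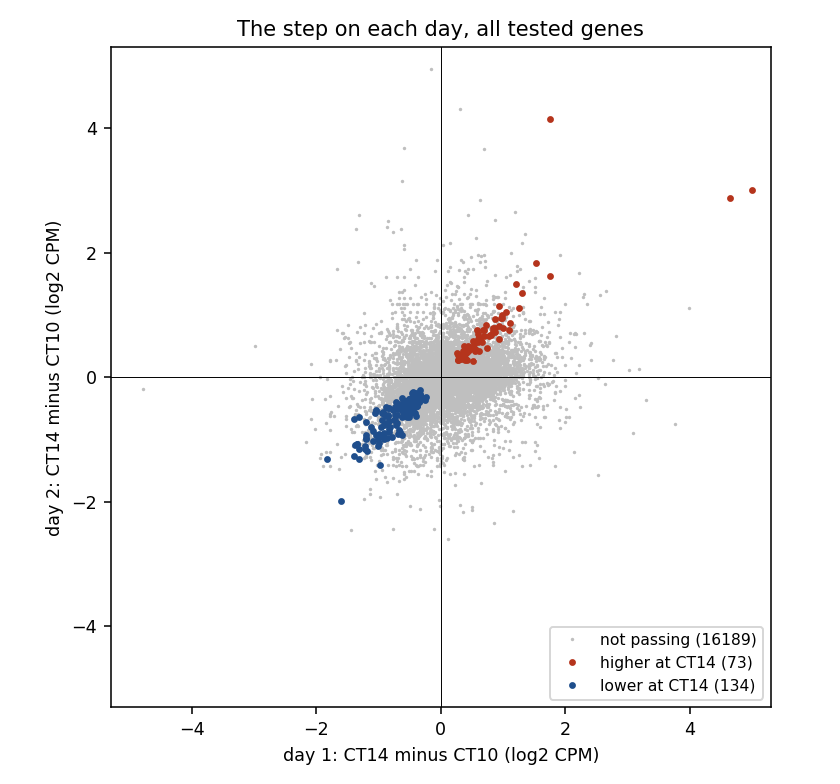
Log2 difference in CPM from CT10 to CT14 on day 1 (x axis) and on day 2 (y axis) for the 16396 genes tested, each point a gene, with the 73 rises in red and the 134 falls in blue. The passing genes lie in the quadrants where both days agree in sign; the 3 red points farthest out are Hspa1b, Hspa1a and the immunoglobulin segment Igkv6-32.

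Some passing genes were processed pseudogenes whose sequence nearly equals that of a parent gene, so that reads could be assigned to either. Gm15459, Gm6210 and Gm8355 matched Hspa8 at 99.7%, 98.6% and 98.7% identity and had log2 differences of 0.84, 0.89 and 0.92, beside 0.82 for Hspa8. With the day block they did not pass (edgeR adjusted p = 0.072, 0.072 and 0.0612). Gm12346 matched Hsp90aa1 at 99.5% and rose by 1.38 ± 0.27 (SE, edgeR adjusted p = 0.0378, 0.0663 with the day block). Their separate values are uncertain. Igkv6-32, an immunoglobulin segment at chr6:70074024-70074603 on the minus strand, also rose, from 0.60 and 0.40 CPM to 2.21 and 8.37 CPM (3.37 ± 0.58, SE, edgeR adjusted p = 0.0294), and it did not pass without that CT14 library of day 2 (log2 difference 2.12, edgeR adjusted p = 0.155). These pseudogenes and this segment were chosen after their values were seen.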

How the data were processed

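RNA-seq of lymph node CD8+ T cells was analysed in 12 libraries, 6 circadian times on each of 2 days. The submitters' processing notes name the genome GRCm38 and the tools RSEM 1.2.28, STAR 2.5.1b, Trimmomatic 0.35 and bcl2fastq 2.19. They name no gene annotation. The authors deposited STAR read counts per gene in 3 columns that differ in strand. Column 4 was used, since its rows without a gene feature took 11.45% to 13.9% of the total, against 77.61% to 80.86% in column 3. Rows that name no gene (29.33% to 31.25%) were left out. The deposited RSEM tables give expected counts, rounded here, and TPM (abundance scaled to transcript length and library), which the authors computed per gene. Of 50600 gene identifiers, 50376 matched GENCODE M21, 45737 with the same version, and this gave symbols and GRCm38 coordinates.

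The count test was edgeR 4.0.16 (R 4.3.3), quasi-likelihood F test with TMM scaling on all 12 libraries, 1 mean per time, filterByExpr by time, the contrast CT14 minus CT10, and 6 residual degrees of freedom. A log2 difference is given ± its SE, taken as its size over the square root of F, and a level as CPM over TMM-scaled totals. Alternatives used DESeq2 1.42.0 and limma 3.58.1 on log2(TPM + 1). The procedure was tested on simulated data.

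The replicate number is the day per the labels. Over 10153 genes, the deviations from the time means of same-day libraries correlated at -0.6 to 0.345 in 15 pairs of times (median 0.0766), and at 0.33 between CT10 and CT14. Values with the day as a block are given where a call changed.

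Named genes were the 15 largest rises and falls among passing genes of at least 5 CPM (no pseudogenes or unnamed clones), passing members of each gene list or the closest ones, all clock genes, marker genes, partners of named genes, and the 3 strongest differences between days. Members and lists were chosen with earlier results of these data known. Promoter windows were those of RefSeq. A few genes that the rule or the lists hold are not reported here.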

Additional observations from a re-analysis of the deposited data

How the results depend on the processing

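All 207 genes kept their sign in each of the 21 alternatives, which refit libraries that had chosen these genes. The counts of genes higher, lower and in total were 562, 372 and 934 with no filter on low counts, 135, 187 and 322 by DESeq2, 284, 409 and 693 without both CT2 libraries, 36, 31 and 67 with the day as replicate block, and 25, 6 and 31 by limma on log2(TPM + 1). Leaving out 1 library at a time gave 9 to 268 higher, 0 to 420 lower and 9 to 688 in total. The lowest counts came without the CT10 library of day 1 or the CT14 library of day 2, which leaves 1 library at that time, assumed to vary like the others. The highest came without a CT2 library. RLE scaling, RSEM expected counts, the CT10 and CT14 libraries alone and the monocyte covariate stayed within 1.5 times of each count. In that order they kept 73, 65, 61 and 57 of the 73 rises and 127, 107, 80 and 92 of the 134 falls. Among the genes named, the block ended the calls given beside their values and changed no other call. With 2 libraries per time, many small differences were missed, and those of genes at a few CPM could not be resolved. In the simulated data, a log2 difference of 0.3 was called in 8% of 50 genes and 1 of 0.5 in 42%. Differences of 0.8 and 1.2 were called in 84% and 96%. Genes that did not pass, the clock genes among them, may thus still differ by 0.3 to 0.5, or by more where the SE is large. The clock output genes Bhlhe40 and Bhlhe41 had log2 differences of 0.58 and 0.55 and were not called in the main edgeR fit, so 0.5 is not an upper limit for clock genes. The difference between days stayed at 0 genes with RLE scaling (214 unadjusted) and without both CT2 libraries (621 unadjusted).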
